A study of Mus musculus with 18 samples.

Results

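The genes described here are Dnmt3a, Dnmt3b, Dnmt3l, Uhrf1, Tet1, Tet2 and Tet3, which code for the de novo DNA methyltransferases, their cofactor, the recruiter of the maintenance enzyme and the enzymes that oxidise methylcytosine. They are 7 of the 21938 protein-coding genes of GENCODE M21, and they were chosen by name, with earlier results of these data known. Methylation of their CpGs was read in mouse embryonic stem (ES) cells with eRRBS, an enhanced form of reduced representation bisulfite sequencing in which restriction fragments are converted with bisulfite and sequenced. All 18 libraries came from ES cells with a knockout of Dnmt1 that had been given a DNMT1 gene on the pPyCAGIP plasmid and kept in puromycin. The 6 groups differ in the DNMT1 they received, which was wild-type (WT), W796A, W465A, W464A/W465A, W465A/W796A or W464A/W465A/W796A, where W to A is a tryptophan to alanine change. Each group had 3 biological replicates by the labels, which name several stable lines per group but do not say whether each replicate was a separate line. Knockout cells with the empty plasmid were not used here, so the level without any DNMT1 is not given. The amount of DNMT1 protein was not used here either, so a difference between mutants and a difference in their amount cannot be told apart.

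DNMT1 copies methylation onto the new strand after replication, and UHRF1 brings it to hemimethylated CpGs by binding them and by ubiquitinating histone H3. The tryptophans changed in W464A and W465A lie in the replication foci targeting domain of DNMT1, which reads that histone mark, and the one changed in W796A lies in its first bromo-adjacent homology domain. DNMT3A and DNMT3B add methyl groups to unmethylated CpGs, DNMT3L stimulates them without being an enzyme itself, and TET1, TET2 and TET3 oxidise 5-methylcytosine to 5-hydroxymethylcytosine and beyond. Start sites rich in CpGs are usually unmethylated, while transcribed gene bodies are usually methylated. Bisulfite sequencing reads 5-methylcytosine and 5-hydroxymethylcytosine alike.

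A CpG entered when it had at least 1 read in all 18 libraries, which held for 6143659 of 21867550 CpGs (28.09%). The libraries held between 59776439 (WT replicate 3) and 138978763 (WT replicate 2) CpG calls. For each gene, the promoter was the 500 bp either side of every annotated transcript start, the body was the rest of the gene, and the flanks were the 5 kb either side. A level is the percentage of methylated reads among all reads of a region in a library. Of the CpGs used, 670 lay in the Dnmt3a locus, 255 in Dnmt3b, 164 in Dnmt3l, 278 in Uhrf1, 555 in Tet1, 321 in Tet2 and 735 in Tet3, with a median of 8 to 12 reads per CpG and library. Over all CpGs used, WT replicate 1 (44.8%) and W796A replicate 1 (40.7%) were below the other libraries of their groups (57.1% to 58.3%), and W465A replicate 1 (27.6%) was above its own (19.4% and 19.6%). Every gene of a library shares that library's overall level, so the 7 genes are not independent of each other. A level in a bulk library does not tell fewer methylated copies in every cell from fewer cells with methylated copies.

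The 6 stretches of start windows printed here show the kinds of sequence on which the results turn. They were read from GRCm38.p6 (the RefSeq FASTA) on the strand of the gene, 5′ to 3′, and the capitals mark the CpGs that were measured in every library. The first, at chr10:78042519-78042766 on the plus strand, lies in the first intron behind the first start of Dnmt3l. The second, at chr10:78054675-78054828 on the plus strand, lies just before the starts of its window 3. The third, at chr10:62879584-62879791 on the minus strand, is exon sequence at a coding start of Tet1 (its window 3, with windows numbered by rising coordinate), and the fourth, at chr17:56317961-56318167 on the plus strand, lies at an internal start of Uhrf1 (window 3). The last pair are CpG-rich starts: chr12:3891587-3891677 on the plus strand, before the internal coding start of Dnmt3a (the start of the short isoform known from ES cells), and chr2:153649741-153649940 on the plus strand, behind the first start of Dnmt3b.
Dnmt3l window 1: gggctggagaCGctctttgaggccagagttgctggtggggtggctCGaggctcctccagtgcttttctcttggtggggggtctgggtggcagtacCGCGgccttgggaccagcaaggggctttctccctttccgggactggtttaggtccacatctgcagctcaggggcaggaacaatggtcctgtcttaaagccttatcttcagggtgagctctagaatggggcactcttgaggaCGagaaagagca
Dnmt3l window 3: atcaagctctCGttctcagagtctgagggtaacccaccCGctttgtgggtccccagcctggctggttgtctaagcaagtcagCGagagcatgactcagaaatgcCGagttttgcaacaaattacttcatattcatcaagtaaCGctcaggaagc
Tet1 window 3: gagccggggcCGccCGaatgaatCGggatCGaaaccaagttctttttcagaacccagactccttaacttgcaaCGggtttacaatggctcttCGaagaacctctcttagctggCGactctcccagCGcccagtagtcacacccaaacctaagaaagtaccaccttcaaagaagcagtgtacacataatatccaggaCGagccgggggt
Uhrf1 window 3: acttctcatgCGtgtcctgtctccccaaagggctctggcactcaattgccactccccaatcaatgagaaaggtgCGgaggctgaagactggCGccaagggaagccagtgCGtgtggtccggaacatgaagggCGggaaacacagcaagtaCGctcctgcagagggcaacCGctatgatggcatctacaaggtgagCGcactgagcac
Dnmt3a window 6: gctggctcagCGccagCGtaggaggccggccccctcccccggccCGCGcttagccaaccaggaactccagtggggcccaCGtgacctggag
Dnmt3b window 1: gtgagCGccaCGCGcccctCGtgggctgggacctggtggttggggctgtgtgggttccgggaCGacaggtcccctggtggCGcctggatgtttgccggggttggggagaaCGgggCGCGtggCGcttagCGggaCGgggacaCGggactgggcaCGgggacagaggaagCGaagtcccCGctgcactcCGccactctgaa

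With the reads of a group pooled, the 5 capitalised CpGs of the Dnmt3l first start were at 44.0 to 68.0% in WT and at 0 to 16.7% in W465A. The 5 CpGs of its window 3 were at 53.1 to 82.4% in WT and 0 to 17.4% in W465A, and the 9 of Tet1 window 3 were at 61.4 to 79.0% and 2.27 to 25.0%. Every measured CpG of these 3 stretches was thus lower in W465A than the lowest of its stretch in WT. In Uhrf1 window 3 the 8 CpGs were at 71.1 to 91.1% in WT and 14.0 to 52.5% in W465A. In the CpG-rich stretches the levels were near 0 in both groups: the 5 CpGs of Dnmt3a were at 0 in WT and in W465A, and the 17 of Dnmt3b reached at most 2.08% in WT and 2.56% in W465A.

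Most annotated starts of the 7 genes were either rich in CpGs and hardly methylated or poor in CpGs and methylated, with exceptions at Dnmt3l and Tet1. Joining starts less than 1 kb apart gave 35 start windows, of which 29 held at least 3 CpGs used. All 7 of those with 50 or more CpGs per kb were under 20% in WT, and among them were the coding starts of Dnmt3a window 6, Tet2 window 6 and Tet3 window 2, at 1.77% ± 1.61, 1.07% ± 0.357 and 0.512% ± 0.365 (SD, n = 3). The first starts of Dnmt3a, Dnmt3b and Uhrf1 were at 1.80% ± 1.04, 0.616% ± 0.408 and 1.02% ± 0.167 (SD, n = 3). The 18 windows at 50% or more in WT held at most 32.0 CpGs per kb. Between these lay Tet1 window 6, at 43.7% ± 26.8 (SD, n = 3). Of the windows with fewer than 50 CpGs per kb, 3 were under 20% on average in WT. Tet1 window 2 was at 13.2, 33.5 and 12.1% in the WT libraries. The coding start of Dnmt3l window 2, with 18.8 CpGs per kb, was at 0, 33.3 and 0%, on 4 CpGs and 11 to 39 reads per library. The last, Tet1 window 4, lay just under the limit at 49.6 CpGs per kb.

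**Figure D1:**
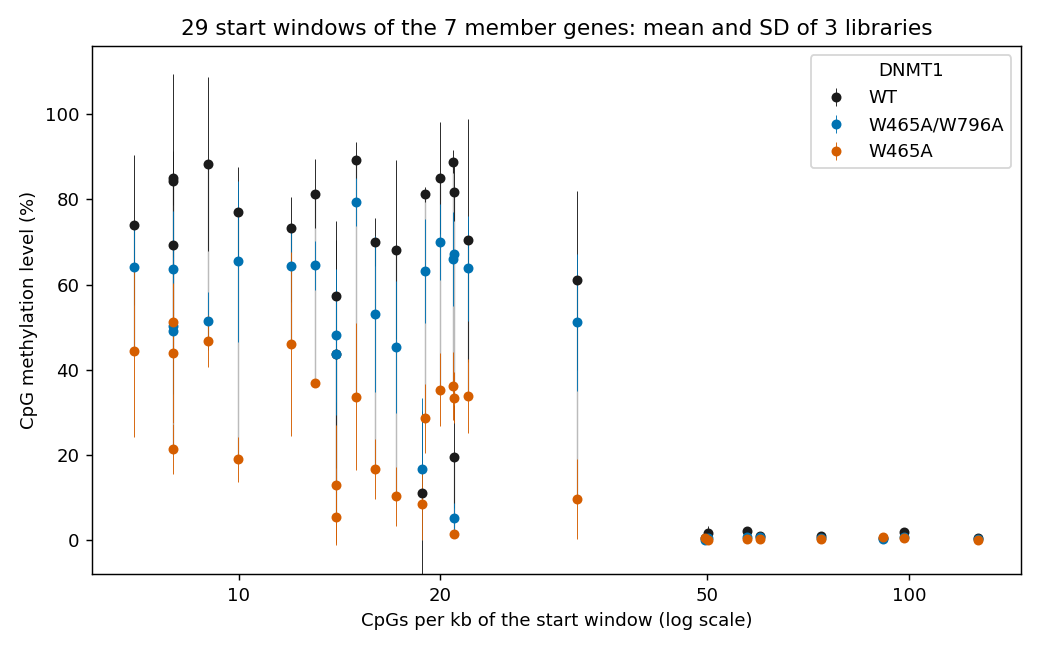
Methylation level (%) of the 29 start windows with at least 3 CpGs used against their CpGs per kb (log axis), as mean and SD of 3 libraries in WT, W465A/W796A and W465A; grey lines join WT and W465A. Windows from 49.6 CpGs per kb up stay near 0 in the 3 groups, while the 18 windows at 50% or more in WT are all lower in W465A.

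Tested one by one over the 33088 start windows of all genes, 18 of the 29 windows were lower in W465A than in WT (called where the adjusted p was under 0.05 and the size at least 10 points, as everywhere in the text), where 53.8% of all windows were called. These windows were made separate regions after the data had been seen. At the window of Dnmt3l's first start the WT libraries were at 44.7, 85.3 and 74.5% and the W465A libraries at 18.1, 6.56 and 6.06%, a difference of -57.91 points (adjusted p = 0.000205). Tet1 window 3 was at 61.4, 81.8 and 39.8% in WT and at 20.5, 4.41 and 4.17% in W465A (-51.32 points, adjusted p = 0.000265). In both windows the groups did not overlap. Tet1 window 2, at a level of 19.6% in WT, also fell, by 18.04 points (adjusted p = 0.000157). No window of the members was called between W796A and WT by the quasi-binomial test or by limma, none had an unadjusted p under 0.05, and 0.0453% of all windows were called.

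Summed over all starts of a gene, the promoter of Dnmt3l was the methylated one of the 7. Its WT level was 57.3% ± 17.2 (SD, n = 3), above 83.1% of all promoters, on 17 CpGs and 85 to 283 reads per WT library. The WT means of the other six ran from 2.34% (Tet3) through 4.45% (Tet2), 7.09% (Dnmt3b), 13.3% (Tet1) and 14.0% (Dnmt3a) to 19.1% (Uhrf1), where the median of all promoters was 8.01%. Within that order the Tet2 libraries lay inside the range of those of Dnmt3b, the libraries of Dnmt3b, Tet1 and Dnmt3a overlapped, and so did those of Tet1, Dnmt3a and Uhrf1. Since the start windows were summed, a gene with starts inside its body, such as Dnmt3a or Uhrf1, has a promoter level that mixes a bare CpG-rich start with methylated internal ones. The first start of Uhrf1 was at 1.02% in WT and 0.377% in W465A. Its internal windows 2 and 3 were at 81.2 and 81.8% in WT and at 28.6 and 33.4% in W465A.

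In W465A the promoters of Dnmt3l, Uhrf1 and Tet1 passed the test, 3 of 7 where 34.7% of all promoters did. At the Dnmt3l promoter the WT libraries were at 40.5, 74.9 and 56.5%, and the W465A libraries at 13.6, 5.60 and 6.38%. The lowest WT library thus stood well above the highest W465A library, and the difference was -48.78 points (adjusted p = 9.32e-05). The Uhrf1 promoter was at 15.5, 17.2 and 24.5% in WT and at 6.48, 7.06 and 6.22% in W465A, a difference of -12.48 points (adjusted p = 8.34e-05) that turned to 1.49 points once each library's overall level was taken into account. The fall of this Uhrf1 sum lay in the internal windows 2 and 3, while the first start of Uhrf1 differed by -0.638 points. For Tet1 the levels were 8.38, 21.1 and 10.6% in WT and 4.24, 1.70 and 1.84% in W465A (-10.75 points, adjusted p = 0.000235). The sums of Dnmt3l and Tet1 also hold starts that hardly differed and were low in WT. Dnmt3l window 2, on 4 CpGs, differed by -2.63 points. Tet1 window 4, with 47 of the 84 CpGs of that promoter, differed by 0.0229 points. The Uhrf1 and Tet1 promoters stood close to the 10-point threshold. Without WT replicate 3 the Uhrf1 difference was -9.78 points, and without WT replicate 2 the Tet1 difference was -6.88 points, so neither was called. Dnmt3a (-8.07 points, adjusted p = 0.000146), Dnmt3b (-4.27), Tet2 (-1.95) and Tet3 (-1.51) had adjusted p under 0.05 with smaller differences.

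Between W464A/W465A and WT 4 of 7 promoters were called lower, against 37.7% of all promoters. They were Dnmt3l (-49.73 points), Uhrf1 (-12.23), Tet1 (-10.47) and Dnmt3a (-10.18 points, adjusted p = 1.77e-05), of which the Uhrf1 and Dnmt3a differences became 3.15 and 1.02 points with the overall level taken into account. The triple mutant had 3 of 7 lower, against 37.9%: Dnmt3l (-48.51 points), Uhrf1 (-12.28, but 3.19 with the overall level taken into account) and Tet1 (-10.76). Leaving out WT replicate 2 or WT replicate 3 reduced the 4 calls in W464A/W465A to 2. In the triple mutant Tet1 was not called without WT replicate 2 (-6.90 points), Uhrf1 was not called without WT replicate 3 (-9.57 points), and Dnmt3a was called as well without WT replicate 1 (-10.92 points).

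The promoter means of W465A/W796A cells lay between those of W465A and WT, though at Tet2 only 0.324 points above W465A, with overlapping libraries. At Dnmt3l the W465A/W796A libraries were at 55.3, 25.0 and 35.1%, all above the W465A libraries. The Dnmt3l difference from W465A was 29.96 points (adjusted p = 0.0203). This was the 1 of 7 promoters called, where 7.57% of all promoters were. It was not called without W465A replicate 2 (28.5 points, adjusted p = 0.0760), W465A replicate 3 (28.89 points) or W465A/W796A replicate 1 (21.53 points), and without W465A/W796A replicate 3 the Uhrf1 promoter was called as well (10.36 points). Uhrf1 promoters were at 15.6, 18.3 and 14.4% in W465A/W796A, also above every W465A library, with a difference of 9.50 points. Against WT, no promoter of the 7 was called by the quasi-binomial test or by limma, 3 had an unadjusted p under 0.05, and 8.19% of all promoters were called. The Dnmt3l difference from WT was -18.82 points (adjusted p = 0.0797), and without WT replicate 1 it was called (-27.23 points).

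W796A alone left no promoter of the 7 called against WT. The Dnmt3l promoter was at 41.4, 60.5 and 45.7% in W796A, within the range of WT. By the quasi-binomial test 0 of 7 were called, 1 (Dnmt3b, -3.56 points) had an unadjusted p under 0.05, limma called 0, and 0.00565% of all promoters were called. The change of the W796A effect between the WT and W465A backgrounds was called at the promoters of Dnmt3l (38.05 points, adjusted p = 0.0352) and Uhrf1 (11.21 points, adjusted p = 0.0273), 2 of 7 where 2.69% of all promoters were. Both calls ended without WT replicate 2, W796A replicate 1, W465A replicate 2, W465A replicate 3 or W465A/W796A replicate 1, and 1 was left without WT replicate 3 or W465A/W796A replicate 3. Without WT replicate 1 the Tet1 promoter was called too (10.27 points). W464A/W465A and W465A promoters differed by at most 2.11 points, with 0 of 7 called, 0 at an unadjusted p under 0.05, 0 by limma and 0% of all promoters called.

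**Figure D2:**
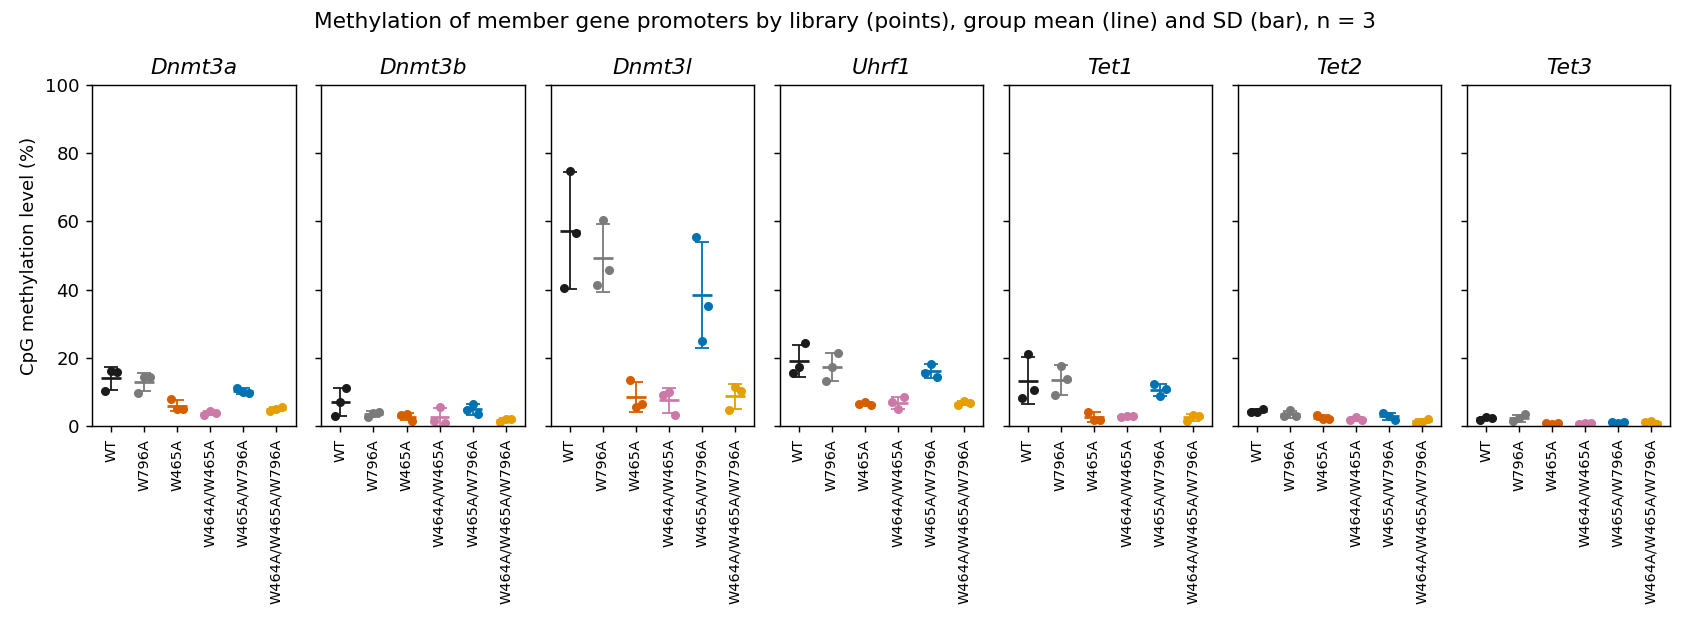
Methylation level (%) of the promoters of the 7 genes in each library (points), with the mean (line) and SD (bar) of the 3 libraries of each DNMT1 group. The Dnmt3l promoter runs from 40.5 to 74.9% in WT and stays at or under 13.6% in W465A, while Tet3 reaches at most 3.43% in any library.

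All 7 gene bodies were methylated in WT cells and fell to less than 51% of their WT mean in W465A, W464A/W465A and W464A/W465A/W796A, a loss shared with nearly all genes. WT means ran from 38.0% ± 13.9 for Dnmt3l to 74.5% ± 9.07 for Uhrf1 (SD, n = 3), where the median of all bodies was 71.0%. The order was Uhrf1, Dnmt3b (73.3%), Tet3 (65.3%), Tet2 (59.6%), Dnmt3a (57.7%), Tet1 (53.1%) and Dnmt3l, and the libraries of each neighbouring pair overlapped. Only the Dnmt3b and Uhrf1 bodies stood above the median of all bodies, at the 60.5th and 66.7th percentile, and Dnmt3l stood at the 10.1th.

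Of the de novo enzymes, Dnmt3a had body levels of 51.0, 62.5 and 59.7% in WT and 28.6, 20.4 and 22.6% in W465A, a difference of -33.85 points (adjusted p = 4.32e-07). For Dnmt3b, the other de novo enzyme, the levels were 67.2, 76.8 and 75.9% in WT and 41.6, 28.3 and 30.7% in W465A (-39.79 points, adjusted p = 2.93e-07). The body of Dnmt3l, their cofactor, was at 29.0, 54.0 and 31.1% in WT and at 12.5, 9.68 and 6.74% in W465A (-28.39 points, adjusted p = 1.73e-06). In each of the 3 genes every W465A library was below every WT library. WT replicate 2 was the highest WT library and W465A replicate 1 the highest W465A library in all 3.

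For Uhrf1 the WT libraries were at 70.3, 85.0 and 68.4% and the W465A libraries at 36.7, 22.2 and 27.6%, the greatest fall of the 7 in points (-45.71, adjusted p = 1.87e-07). Tet1 was at 47.4, 62.6 and 49.4% in WT and at 28.2, 13.1 and 12.2% in W465A (-35.27 points, adjusted p = 8.92e-07). Tet2 was at 50.2, 74.0 and 54.7% in WT and at 36.4, 16.9 and 16.3% in W465A (-36.41 points, adjusted p = 2.41e-06). The groups of these 3 genes did not overlap, although W465A replicate 1 had a higher Tet1 level than the other W465A libraries. Tet3 was at 56.1, 70.6 and 69.1% in WT and at 40.8, 28.6 and 29.3% in W465A, again without overlap (-32.37 points, adjusted p = 2.9e-06), and its difference became 0.28 points with the overall level taken into account. In all, 7 of 7 bodies were lower in W465A, where 95.9% of all bodies were called, so the members' count is near the background.

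The mutants of both tryptophans of the targeting domain had lower means still. W464A/W465A was not called different from W465A, and W464A/W465A/W796A was not tested against it. Dnmt3b bodies were at 24.8, 26.4 and 20.9% in W464A/W465A, all below the 3 W465A libraries, and Tet3 bodies, at 23.4, 27.3 and 22.3%, were likewise below all 3. Those differences from W465A were -9.49 and -8.59 points (adjusted p = 0.486 for both). By the quasi-binomial test 0 of 7 bodies differed between W464A/W465A and W465A, 0 had an unadjusted p under 0.05, limma called 0, and 0% of all bodies were called. Against WT, 7 of 7 bodies were lower in W464A/W465A (96.4% of all bodies called), with differences from -32.17 points (Dnmt3l) to -50.61 points (Uhrf1). In W464A/W465A/W796A 7 of 7 were lower (96.5% of all called), from -30.27 points (Dnmt3l) to -52.71 points (Uhrf1).

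**Figure D3:**
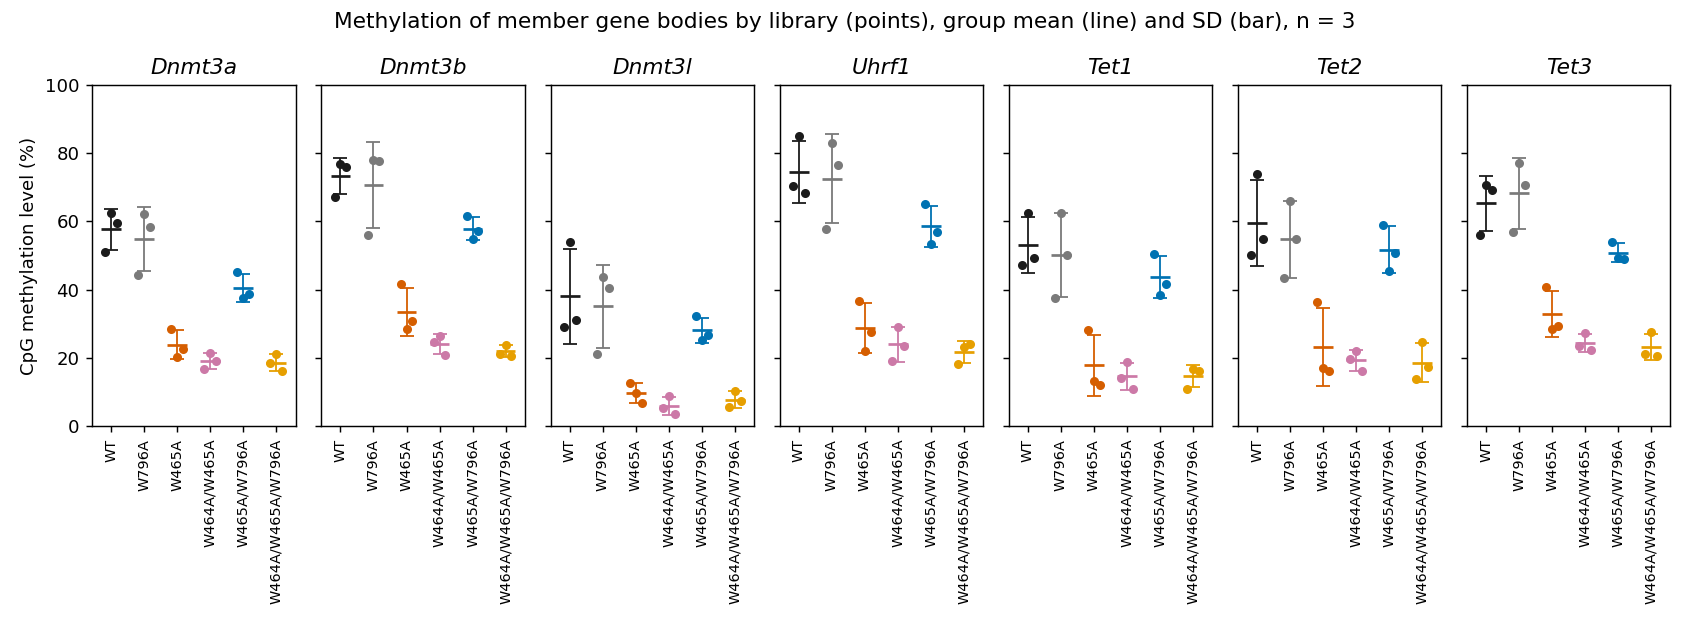
Methylation level (%) of the bodies of the 7 genes in each library (points), with the mean (line) and SD (bar) of the 3 libraries of each DNMT1 group. W465A, W464A/W465A and W464A/W465A/W796A lie below all WT libraries in the 7 panels, and the W465A/W796A means lie between those of W465A and WT, with libraries that overlap WT at Dnmt3l, Tet1 and Tet2.

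W796A alone did not lower a body of the 7 past the test, while in cells with W465A it went with higher levels at all of them. Dnmt3l bodies were at 21.2, 43.8 and 40.4% in W796A and Tet2 bodies at 43.5, 66.1 and 54.8%, overlapping WT in both cases. The differences from WT ran from -4.84 (Tet2) to 2.92 (Tet3) points, with 0 of 7 called by the quasi-binomial test, 0 at an unadjusted p under 0.05, 0 by limma and 0% of all bodies called (211 of 19410 had an unadjusted p under 0.05). W796A replicate 1 was the lowest W796A library in all 7 bodies, as it was over all CpGs.

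In W465A/W796A the Tet2 body was at 59.0, 45.5 and 50.8%, against 36.4, 16.9 and 16.3% in W465A, a rise of 28.54 points (adjusted p = 0.00319). Tet1 was at 50.6, 38.6 and 41.8% (25.82 points above W465A, adjusted p = 0.00317), and Uhrf1 at 65.2, 53.4 and 56.9% (29.67 points, adjusted p = 0.00319). Every W465A/W796A library was above every W465A library in these genes, and the Tet1 and Tet2 libraries overlapped WT. For the de novo genes the levels in W465A/W796A were 45.3, 37.5 and 38.6% at Dnmt3a, 61.6, 54.8 and 57.2% at Dnmt3b, and 32.2, 25.2 and 26.7% at Dnmt3l. These were 16.61, 24.34 and 18.40 points above W465A (adjusted p = 0.00807, 0.00385 and 0.00473). Tet3, at 54.0, 49.3 and 49.0%, was 17.87 points above W465A (adjusted p = 0.0115), a difference that became -0.69 points with the overall level taken into account. All 7 bodies were called higher than in W465A, where 81.1% of all bodies were. Leaving out W465A replicate 3 or W465A/W796A replicate 1 ended the call of Tet3 (adjusted p = 0.0650 and 0.0677), and the second also ended that of Dnmt3a (adjusted p = 0.0700).

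Against WT, 4 of 7 bodies were lower in W465A/W796A, where 78.0% of all bodies were called. These were Dnmt3a (-17.24 points, adjusted p = 0.0106), Uhrf1 (-16.04, adjusted p = 0.0184), Dnmt3b (-15.45, adjusted p = 0.0227) and Tet3 (-14.50, adjusted p = 0.0222), and in each the W465A/W796A libraries lay below the WT libraries. Dnmt3l (-9.99 points, adjusted p = 0.0582), Tet1 (-9.45, adjusted p = 0.114) and Tet2 (-7.87, adjusted p = 0.149) were not called, and in these 3 the libraries overlapped those of WT. The Dnmt3l body was called lower without WT replicate 1 (-14.50 points, adjusted p = 0.0157) and without WT replicate 3 (-13.46 points, adjusted p = 0.0390). Without WT replicate 2 none of the 4 was called (adjusted p from 0.148 to 0.289), and without W465A/W796A replicate 2 or 3 only Dnmt3a was. limma called 2 of 7.

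The effect of W796A differed between the W465A and WT backgrounds at 6 of 7 bodies, where 34.7% of all bodies were called. The quantity is the difference W465A/W796A minus W465A less the difference W796A minus WT, tested on the logit scale. It was 33.37 points at Tet2 (adjusted p = 0.0187), 31.72 at Uhrf1, 28.81 at Tet1, 27.04 at Dnmt3b, 21.32 at Dnmt3l and 19.44 at Dnmt3a (adjusted p = 0.0374). The median of all bodies was 20.45 points, so Dnmt3l was close to it and Dnmt3a below it. Tet3 had 14.95 points (adjusted p = 0.110), and was called without WT replicate 1, W796A replicate 2 or W465A replicate 1 (18.89 to 19.54 points). No member was called without WT replicate 2, W465A replicate 2, W465A replicate 3 or W465A/W796A replicate 1. Without W796A replicate 1 the count was 3, so these 6 calls were not stable when single libraries were left out. The differences of the 6 bodies stayed positive. They ran from 18.8 (Dnmt3a) to 31.12 points (Uhrf1) without W465A replicate 3. Without WT replicate 2 they ran from 13.34 (Dnmt3l) to 26.51 points (Uhrf1). For bodies and promoters alike, this interaction was not run with limma or with each library's level over all CpGs taken into account.

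Because most CpGs changed between these groups, the bodies were also set against the change of each library as a whole. With the library's level over all CpGs as an offset, a difference is the points above or below what the region would show had it moved from the reference group as all CpGs did on the logit scale. The median of all bodies was then -9.55 points between W465A and WT, in place of -40.53. Uhrf1 alone was called among the 7 in W465A (-16.76 points, adjusted p = 0.00178), where 42.0% of all bodies were, so it stood with many other genes. It was also called in W464A/W465A (-13.74 points, 1 of 7 against 47.4% of all bodies) and in the triple mutant (-15.29 points), where Dnmt3b was too (-10.94 points, 2 of 7 against 49.5%). Dnmt3a, at -1.94 points in W465A, and Tet3 were near the change of all CpGs. W465A/W796A gave 0 calls among the 7 against WT (0 at an unadjusted p under 0.05, 13.3% of all bodies called) and 0 against W465A (5 at an unadjusted p under 0.05, 3.20% of all bodies called), in the quasi-binomial test; limma was not run with this offset.

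As a share of the WT level, the 7 bodies spread over most of the range of all bodies. Among 14782 bodies with at least 20 CpGs and 20% in WT, the median kept 42.1% of the WT level in W465A, with the 5th to 95th percentile at 28.6 to 50.5%. Dnmt3l kept 25.4% (the 2.27th percentile) and Tet3 50.4% (the 94.9th), and the other five kept 33.6% (Tet1) to 45.7% (Dnmt3b). Dnmt3l was also under the 5th percentile in W464A/W465A, at 15.4% of WT, and near it in W464A/W465A/W796A, at 20.4%. Tet3 was the highest of the 7 in those groups, at 37.3 and 35.5%. In W465A/W796A the order was another one: Tet2 kept 86.8% (the 98.6th percentile) and Tet1 82.2% (the 94.1th), Dnmt3l kept 73.7%, close to the median of 73.8%, and Dnmt3a was lowest at 70.1%. These percentiles are descriptions of group means, and the SD of the Tet2 body in WT was 12.6 points on a mean of 59.6%. They rank shares, and points gave Dnmt3l another place. Its fall in W465A was the smallest of the 7 in points (-28.39). With the library's level over all CpGs as an offset, its difference was -5.545 points, where the median of all bodies was -9.545.

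**Figure D4:**
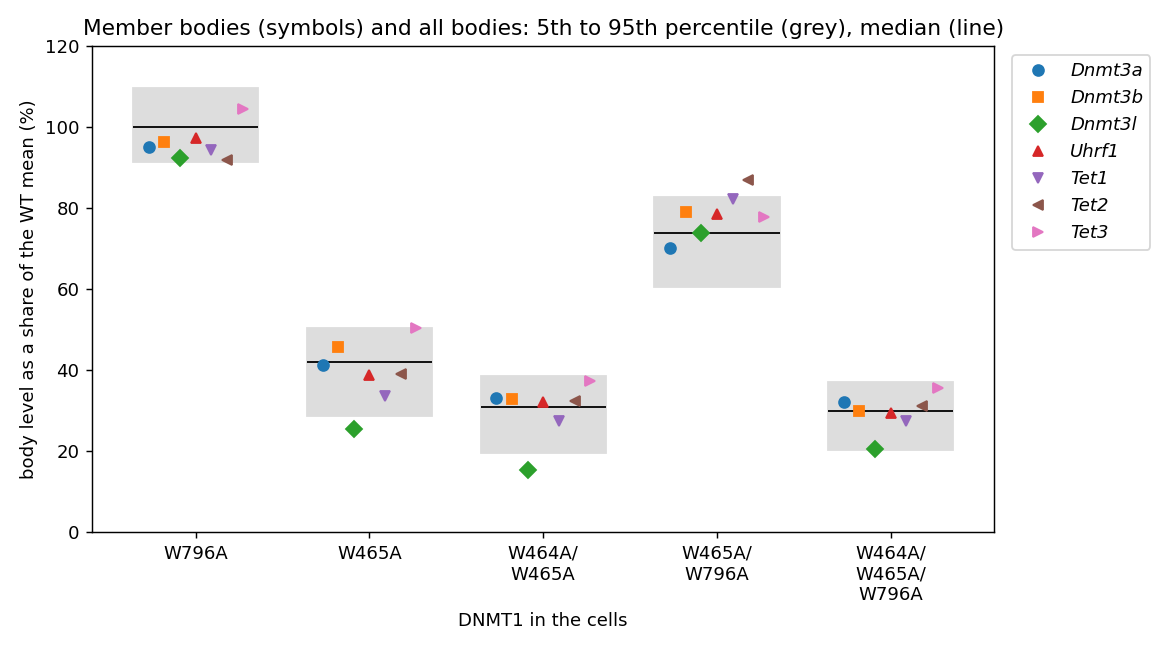
Body level as a share (%) of the WT mean in the 5 mutant groups, for the 7 genes (symbols) and for 14782 bodies (grey from the 5th to the 95th percentile, line at the median). Dnmt3l lies under the grey range in W465A and W464A/W465A, and Tet2 lies above it in W465A/W796A.

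The low body level of Dnmt3l came with stretches of low methylation behind its first start. From 1.3 to 2 kb after the first annotated start, a stretch picked after its values were seen, 30 CpGs were at 2.54, 15.5 and 2.56% in WT and at 2.90, 1.03 and 0% in W465A. With the WT reads pooled, single CpGs there were at 0 to 37.8%, the ones at 0 all lying between 1.52 and 1.74 kb. Further along, from 6.48 to 8.20 kb, single CpGs were again low in WT, at 0 to 35.0%. That second stretch runs into the coding start window 2, whose CpGs count to the promoter and not to the body. Without the first of these stretches, the remaining 79 CpGs of the body were at 51.0% ± 12.9 in WT, 13.5% ± 4.99 in W465A and 37.3% ± 7.40 in W465A/W796A (SD, n = 3), so the WT level was still below the median of all bodies. Tet1 had a bare region around its CpG-dense internal starts (window 4, 0.546% ± 0.497 in WT, SD, n = 3), with methylated CpGs on both sides.

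**Figure D5:**
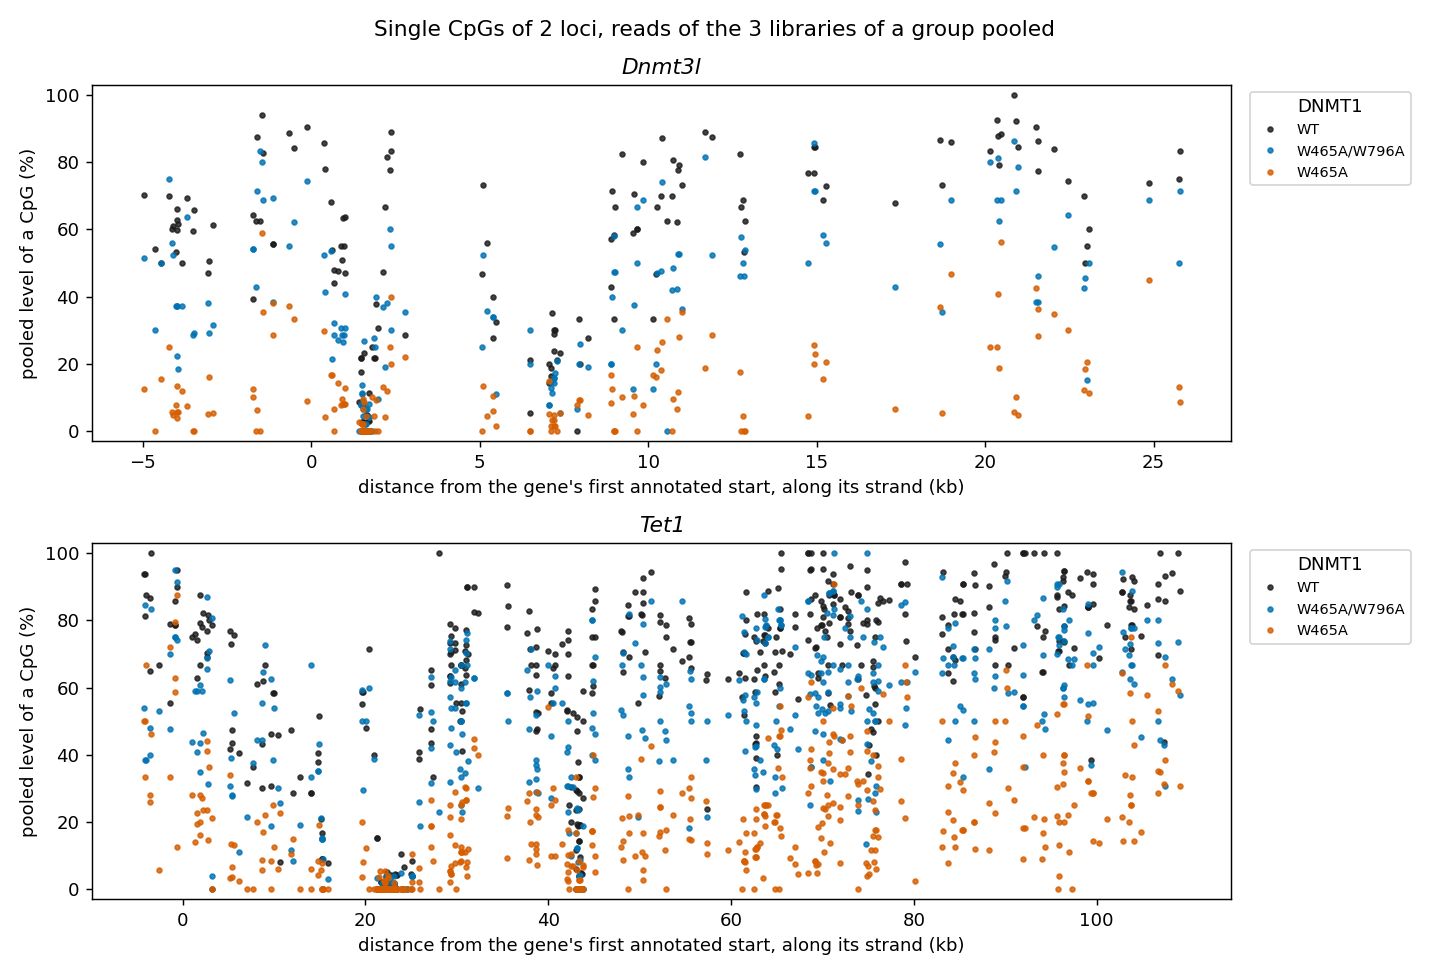
Level (%) of single CpGs along the Dnmt3l and Tet1 loci against the distance (kb) from the first annotated start, with the reads of the 3 libraries of WT, W465A/W796A and W465A pooled. WT CpGs are at 37.8% or less from 1.3 to 2 kb behind the first Dnmt3l start, and near 0 around the dense Tet1 starts. From 6.48 to 8.20 kb at Dnmt3l, in part inside its start window 2, they are at 35.0% or less. Elsewhere W465A lies mostly below W465A/W796A.

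Within the bodies, exons were more methylated than introns in WT at all 7 genes. The means were 79.9 against 53.0% at Dnmt3a, 70.1 against 34.5% at Dnmt3l, 77.3 against 48.6% at Tet1 and 76.3 against 49.8% at Tet2. Smaller gaps stood at Dnmt3b (80.6 against 71.3%), Uhrf1 (85.1 against 73.0%) and Tet3 (76.5 against 60.5%). Both parts were lower in W465A: Tet1 exons were at 25.2% ± 11.1 and its introns at 16.4% ± 8.53, and Uhrf1 exons, on 12 CpGs, were at 28.1% ± 5.70 and its introns at 28.9% ± 7.89 (SD, n = 3). These are sums of few CpGs in some genes, and the exon and intron levels were not tested against each other.

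CpGs in repeats (the soft-masked bases of the reference) were 15 to 75 per body. At Dnmt3l they were at 66.4% ± 9.44 in WT, against 34.4% ± 14.4 for the other body CpGs, and at 21.1% ± 6.28 against 8.36% ± 2.69 in W465A (SD, n = 3). Among the other six genes the WT means of both classes were furthest apart at Tet3, at 72.9 against 64.8%. The flanks of 5 kb followed the bodies in 6 genes, with WT libraries between 42.6% (Dnmt3l) and 85.8% (Tet3), while those of Uhrf1, where the genes Arrdc5 and Kdm4b lie within 5 kb, were at 14.3, 18.4 and 15.6% in WT and at 6.03, 4.46 and 6.21% in W465A. Antisense transcripts overlap or neighbour Dnmt3a, Dnmt3b and Tet2, and Aire lies within 5 kb of Dnmt3l. Other genes also overlap or lie within 5 kb of Tet1 and Tet3, among them the protein-coding Bola3 at Tet3. CpGs counted to a member can thus belong to both genes.

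Most other genes of methylation upkeep, removal and reading also had lower bodies in W465A. From a list of 40, 39 were covered, and 36 bodies were lower than in WT (95.9% of all bodies were), with a median of -40.21 points beside -40.53 for all bodies. The greatest falls were at Hells, a chromatin remodeller needed for methylation of repeats (-48.13 points), and Zbtb24, a zinc finger regulator of that remodelling (-46.98). The smallest differences were at Gadd45a (-1.52 points, from a level of 2.19% in WT) and Gadd45g (-3.12 points, from 4.32%), stress genes linked to demethylation. Of 39 promoters 10 were lower, where 34.7% of all promoters were, with a median of -4.79 points beside -4.80. Among the most methylated in WT were those of Trim28, a corepressor (55.2% ± 11.2), Parp1, a DNA repair enzyme (50.6% ± 9.05), and Apobec1, a cytidine deaminase (48.7% ± 22.8) (SD, n = 3). In W465A these 3 were at 15.4, 24.3 and 13.7%. They are sums over all annotated starts, internal ones included, and the single starts of these genes are not given here. The Trim28 body was at 10.1% in WT. In W465A/W796A 23 of 39 bodies were lower than in WT, where 78.0% of all bodies were, with a median of -13.80 points beside -18.23 for all bodies. Against W465A 32 of 39 were higher, where 81.1% of all bodies were, with a median of 23.95 points beside 20.87.

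The genes whose body levels over the 18 libraries were most like each member, by the root mean square difference, were Elf1 for Dnmt3a (1.73 points), Mlxip for Dnmt3b (1.85), Cbx6 for Dnmt3l (2.81), Rrn3 for Uhrf1 (2.43), Hs6st1 for Tet1 (2.02), Eif4e2 for Tet2 (2.65) and Eya2 for Tet3 (1.39), out of 15528 bodies with at least 20 CpGs. The promoter most like that of Dnmt3l was that of Spn (5.38 points), at 48.6% in WT and 7.56% in W465A. The assay measures DNA, so the cell type could be checked only on promoters. Of 10 ES cell genes 9 were covered, and all 9 promoters were under 20% in WT, Esrrb being the highest at 6.35%. Of 8 genes of other cells, 5 promoters were also under 20%, and Col1a1 was the highest at 46.9%, so these levels do not separate the cell types.

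The single starts, whose reads are also part of the promoter sums, were higher in the double mutant than in W465A at some windows. In W465A/W796A 10 of 29 start windows were called higher than in W465A, where 14.9% of all windows were. Among them were the windows of Dnmt3l's first start, at 62.2, 42.1 and 31.8% (35.14 points above W465A, adjusted p = 0.0383), of Tet1 window 3, at 68.0, 35.9 and 49.6% (41.49 points, adjusted p = 0.0202), and of Uhrf1 window 3 (33.69 points, adjusted p = 0.0119). None was called without W465A replicate 2, W465A replicate 3 or W465A/W796A replicate 1. Against WT 2 of 29 were lower, where 9.91% of all windows were called: Uhrf1 window 3 (-14.69 points, adjusted p = 0.0416) and Tet1 window 2 (-14.36 points, adjusted p = 0.0286). Without WT replicate 2 or any of the W465A/W796A libraries neither was called, without WT replicate 3 the count was 1, and without WT replicate 1 it was 6.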

How the data were processed

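The authors deposited 1 table of methylated and total read counts per CpG and library, per the file headers. Trimming and alignment used cutadapt 1.2.1, Bismark 0.18.1 and Bowtie 1.2 on mm10/GRCm38, per the submitters' processing notes. All 21867550 positions listed are CpGs of the reference. Reads of the CpGs of each body, promoter or start window were summed per library, and regions with at least 3 CpGs were kept. A quasi-binomial logistic model with the group as its term was fitted over all protein-coding genes (Python 3.11.15, numpy 2.4.6, scipy 1.17.1), with all 18 libraries giving the overdispersion, which was squeezed with limma 3.58.1 (R 4.3.3). p-values were adjusted by Benjamini-Hochberg over all genes tested. An F test gave each p, and calls needed an adjusted p under 0.05 with group means at least 10 percentage points apart. The code was tested on simulated data. PCR copies were not told apart, so read counts overstate the molecules. p-values measure the spread between these libraries.

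The 7 genes and the gene lists were chosen with earlier results of these data known. All members are named, with the 4 most methylated promoters and the bodies of the 2 greatest and 2 smallest falls in W465A of the list of 40 genes, and the gene most like each member. One promoter that this rule names is not reported here. Alternatives were at least 5 reads per CpG, at least 1 CpG per region, limma on log2 ratios with 0.5 reads added, no squeezing, only the compared groups in the fit, promoters of 1000 bp either side, an offset for the overall level, a replicate block, and each library left out. Same-numbered libraries deviated together (r above 0.1 for all 3 numbers) in 1 of 15 pairs of groups, WT and W796A (r = 0.345, 0.305 and 0.210 over bodies), although no label names a shared source. A replicate block in those 2 groups alone, added after the data were seen, called 0 of 7 bodies and 0 of 7 promoters, as without it.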

Additional observations from a re-analysis of the deposited data

Results flagged for a closer look

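Results listed here are those where the effect of W796A, in percentage points, differed by test between cells with and without W465A. Among the bodies these were Tet2 (33.37), Uhrf1 (31.72), Tet1 (28.81), Dnmt3b (27.04), Dnmt3l (21.32) and Dnmt3a (19.44). Among the promoters they were Dnmt3l (38.05) and Uhrf1 (11.21). The median of this difference was 20.45 points over all bodies and 1.48 points over all promoters, with 34.7% and 2.69% called. The libraries W465A replicate 1, WT replicate 1 and W796A replicate 1, which stand apart in overall level, enter each of these values, and their part in the result was not tested beyond leaving each out. Without W796A replicate 1, 3 body calls and 0 promoter calls were left. Leaving out WT replicate 2, W465A replicate 2, W465A replicate 3 or W465A/W796A replicate 1 ended all of these calls.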

How the results depend on the processing

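The replicate block called 7 of 7 bodies lower in W465A, W464A/W465A and W464A/W465A/W796A, 4 in W465A/W796A, 7 higher in W465A/W796A than in W465A and 6 in the interaction, and changed no call of a body or promoter; it left 1 start window lower in W465A/W796A than in WT. The numbers as a pairing rest on the data alone. With at least 5 reads per CpG, 2 bodies were lower in W465A/W796A than in WT, 2 promoters in W464A/W465A, and 2 promoters were higher in W465A/W796A than in W465A; of the start windows, fewer of which had enough CpGs, 4 were lower in W465A, 0 in W465A/W796A, and 3 higher than in W465A. limma called 2 bodies lower in W465A/W796A, 0 start windows lower in it and 5 higher than in W465A. Without squeezing, the interaction called 0 bodies and 0 promoters, W465A/W796A against W465A called 0 promoters and 1 start window, and W465A/W796A against WT called 0 start windows. With the offset for the overall level, the bodies called were 1 in W465A, 1 in W464A/W465A, 2 in W464A/W465A/W796A, 0 in W465A/W796A against WT and 0 against W465A; the promoters were 1, 1 and 1 in the first 3 and 0 in W465A/W796A against W465A; the start windows were 6 in W465A, 0 in W465A/W796A against WT and 0 against W465A. Under that offset the differences that changed sign were Tet3 bodies in W465A (0.28 points) and in W465A/W796A against W465A (-0.69), Uhrf1 promoters in W465A (1.49), W464A/W465A (3.15) and W464A/W465A/W796A (3.19), and the Dnmt3a promoter in W464A/W465A (1.02). Promoters of 1000 bp either side gave 2 calls in W465A/W796A against W465A. Starts of coding transcripts of the basic set alone, added after the data were seen, gave 2 in W464A/W465A and 0 in W465A/W796A against W465A. With those starts alone 5 promoter results were weaker, so other counts were touched too. The only Uhrf1 window with such a start, window 1, was at 1.02% in WT, so the Uhrf1 promoter calls against WT rest on its other starts. The cause of these changes was not tested.

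Leaving out 1 library at a time gave 7 to 7 bodies lower in W465A, W464A/W465A and W464A/W465A/W796A, 0 to 5 in W465A/W796A, 5 to 7 higher in W465A/W796A than in W465A, and 0 to 7 in the interaction; in W796A, and in W464A/W465A against W465A, it gave 0 to 0. For promoters the ranges were 2 to 3 in W465A, 2 to 4 in W464A/W465A, 2 to 4 in W464A/W465A/W796A, 0 to 1 in W465A/W796A, 0 to 2 against W465A, 0 to 3 in the interaction and 0 to 0 in W796A and in W464A/W465A against W465A. For start windows they were 0 to 0 in W796A, 15 to 20 in W465A, 0 to 6 in W465A/W796A and 0 to 9 against W465A. At a median of 8 to 12 reads per CpG, single CpGs carry wide counting error, and the Dnmt3l promoter rests on 85 reads in the shallowest WT library.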
